A study of Caenorhabditis elegans with 11 samples.

Results

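The comparison described here is the ageing of wild-type Caenorhabditis elegans (strain N2) on Escherichia coli that lack tryptophanase, measured as RNA from late adults against RNA from early adults. Its members are the 2 late and the 2 early libraries whose titles name N2 and the tnaA bacteria (replicates 2 and 3 of each group), 4 of the 11 libraries in the series. Late worms on tnaA are given an age of 12 days. Early worms on tnaA are labelled 3 days old, whereas the text on the study's design calls them 2-day adults. The labels name no transgene or treatment for N2 other than the bacteria. All were raised on those bacteria from the embryo, at 16 °C on standard plates, and each library came from about 150 pooled whole adults. Late N2 on K12, the strain that makes indole and from which tnaA is derived (2 libraries), and early N2 on K12 (3 libraries) serve as the comparison, and 2 libraries of late ahr-1(ia3) mutants on K12 enter the shared model only. How eggs and larvae were kept away from the ageing adults is not given in the sources used here.

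Tryptophanase, the product of tnaA, splits tryptophan and releases indole, a small molecule that many gut bacteria secrete and that host cells can sense through the aryl hydrocarbon receptor, AHR-1 in the worm. A hermaphrodite of C. elegans lays its self-fertilised eggs during the first days of adulthood and then lives on for weeks after its own sperm is used up. During that time the intestine makes yolk for the oocytes, the gonad stops ovulating, and muscle, gut and cuticle decline. Whole-animal RNA mixes all of these tissues with the eggs inside the mother, so fewer cells of a type and less RNA per cell cannot be told apart in any result here.

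Reads assigned to genes numbered 14695180 and 8310145 in the late libraries (replicates 2 and 3) and 15167342 and 14942600 in the early ones. A further 9.265% and 14.84% of reads in late libraries, and 7.073% and 6.95% in early ones, fell outside genes. At least 1 read was found for 20983 and 19125 genes in late worms and for 17323 and 16780 genes in early worms. Replicates differed by more than counting error, so no library repeats another. Over genes with at least 20 reads, chi-square over degrees of freedom was 4.093 between the late and 3.136 between the early libraries. Of the 15133 genes tested, 39 differed by at least 2-fold between the late replicates and 319 between the early ones. Those counts compare log2(CPM + 1), which damps differences between low values. The early difference includes sperm transcripts (given below). Levels are in CPM, read counts scaled to a common library size after TMM, a normalisation that centres typical genes, and are compared within a gene only. Each pair of values below gives replicates 2 and 3 in that order, so n is 2 in each group, and the p-values measure the spread between such libraries.

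Most of the transcriptome differed between late and early worms on tnaA. Of 15133 genes tested, 5394 (35.6%) were higher and 5498 (36.3%) lower in late worms, 72% in either direction (edgeR quasi-likelihood test, two-sided, called at a Benjamini-Hochberg adjusted p under 0.05). At least 2-fold changes numbered 3831 rises (25.3%) and 2237 falls (14.8%). Rises were the larger changes, with a median size of 1.72 on the log2 scale against 0.85 for falls, and 699 rises but 228 falls reached 16-fold. Falls were the more frequent calls among abundant transcripts and rises among scarce ones. Among the 281 genes that averaged 500 CPM or more over both groups, 9.61% rose and 85.1% fell, whereas among 3407 genes between 1 and 5 CPM 44.8% rose and 17.7% fell. Between these, the 5054 genes from 5 to 50 CPM split evenly, with 40.6% higher and 39.8% lower. Genes scarce in early worms can pass the filter on low counts through late reads alone. Genes that rose took 31.15% and 31.53% of late reads and 10.86% and 10.81% of early reads, while genes that fell took 55.66% and 55.32% of late reads and 79.63% and 79.79% of early reads. Scaling by library size alone moved the median gene up by 0.474, so that 7840 genes were higher and 3140 lower (71.4% of calls higher, against 49.5% with TMM). Since that scaling moved changes upward, the call kept by all 5394 rises is no test of them. Of the falls 3140 kept their call and 498 turned into rises, so that small falls hold on the TMM scale only.

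**Figure D1:**
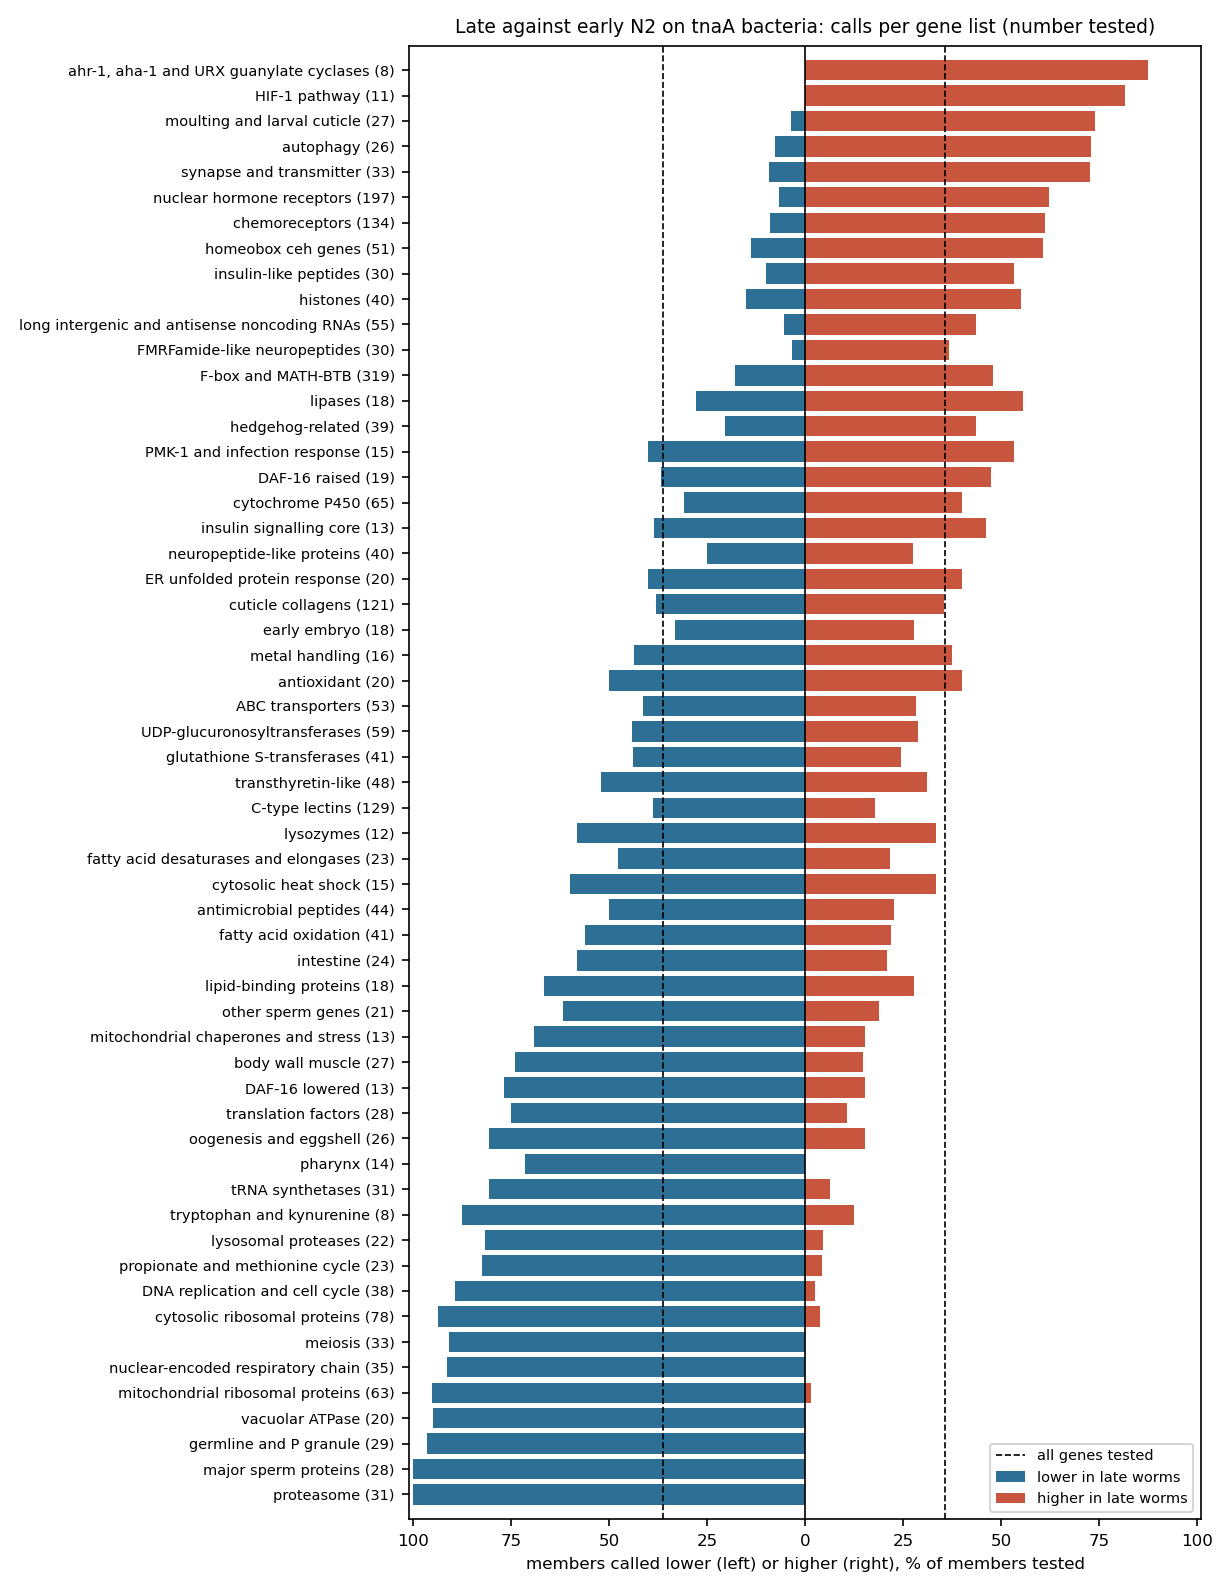
Share of the tested members of each gene list (number tested in brackets) called lower (left bars, blue) or higher (right bars, red) in late against early N2 on tnaA. Dashed lines mark the shares over all genes tested, 36.3% lower and 35.6% higher. All 31 proteasome and all 28 major sperm protein genes lie on the lower side, whereas 24 of 33 synapse genes and 123 of 197 nuclear hormone receptors lie on the higher side.

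Yolk transcripts fell steeply. Yolk proteins are lipoproteins that the intestine secretes and oocytes take up, and the 6 vitellogenin genes together took 1.713% and 1.431% of late reads and 6.582% and 6.534% of early reads. All 6 fell. vit-2 stood at 6611 and 5539 CPM in late and 26430 and 27900 CPM in early worms (log2 fold change -2.16 ± 0.11, standard error from the model, adjusted p = 7.95e-10). vit-6 stood at 6235 and 4985 CPM in late and 23294 and 24141 CPM in early worms (-2.08 ± 0.10). vit-5 stood at 1846 and 1602 CPM in late and 13972 and 14182 CPM in early worms (-3.03 ± 0.10). vit-3 had 11.1 and 12.7 CPM in late and 4621 and 4590 CPM in early worms (-8.61 ± 0.86, adjusted p = 8.06e-07), and vit-4 and vit-1 changed by -6.60 ± 0.58 and -5.92 ± 0.52. Late and early libraries lay far apart for each of them. The genes vit-1 to vit-5 are close copies, so how reads were divided among them by the authors' counting is uncertain.

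Oocyte and germline transcripts fell nearly as whole lists. In the oogenesis and eggshell list, 4 of 26 members rose and 21 fell (median -1.37). cbd-1, a chitin-binding protein of the eggshell, stood at 1101 and 1025 CPM in late and 3566 and 3767 CPM in early worms (-1.79 ± 0.08, adjusted p = 4.6e-10). The chitin synthase gene chs-1 stood at 181 and 159 CPM in late and 539.9 and 549 CPM in early worms (-1.68 ± 0.08). The egg activation gene egg-3 (-1.49 ± 0.06), the Y-box protein gene cey-3 (-1.76 ± 0.09) and puf-11 of the Pumilio family of RNA-binding proteins (-1.53 ± 0.07) fell to a like extent. Of 29 genes of the germline and its P granules, the RNA-rich granules of germ cells, 28 fell and 0 rose (median -1.12). Among them were cgh-1, an RNA helicase that protects stored oocyte messages, at 825 and 732 CPM in late and 2766 and 2825 CPM in early worms (-1.84 ± 0.09), the P granule scaffold gene pgl-3 (-1.53 ± 0.06), the Argonaute genes csr-1 (-1.57 ± 0.06) and wago-1 (-1.54 ± 0.08), and the translational repressor gene ifet-1 (-1.43 ± 0.06). Both late values lay below both early values in 28 of the 29, against 42.1% of all genes tested. By library size alone 3 of the 29 were higher and 23 lower.

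Meiosis and cell division genes fell by less. Of 33 meiosis genes, 30 fell and 0 rose (median -0.71), with syp-2 of the synaptonemal complex at 29.4 and 29.8 CPM in late and 68.7 and 66.97 CPM in early worms (-1.20 ± 0.07), cra-1, needed to assemble that complex (-1.49 ± 0.07), the nuclear envelope gene sun-1 (-1.36 ± 0.10), the crossover gene zhp-3 (-1.18 ± 0.09) and the recombinase gene rad-51 (-0.80 ± 0.06). Scaled by library size alone, 4 meiosis genes were higher and 19 lower. Of 38 genes of DNA replication and the cell cycle, 1 rose and 34 fell (median -0.55), among them the helicase subunit gene mcm-6 (-1.05 ± 0.06) and the mitotic kinase genes air-1 (-0.97 ± 0.05) and plk-1 (-0.93 ± 0.06). Those counts were 10 higher and 14 lower by library size alone, so the counts of this list rest on the scaling. Histones went the other way, with 22 of 40 tested members higher (55.0%, against 35.6% over all genes) and 6 lower (median 0.68). Leaving out single tnaA libraries gave 15 to 25 rises, the fewest without early replicate 2. The replication-independent H3.3 genes his-72 (460.4 and 531 CPM in late and 171 and 191 CPM in early worms, 1.45 ± 0.08) and his-71 (2.13 ± 0.12) and the H1 linker genes hil-3 (219 and 277 CPM in late and 11.2 and 14.1 CPM in early worms, 4.29 ± 0.17), hil-1 (3.02 ± 0.13) and hil-2 (2.26 ± 0.12) rose. Of 82 histone genes in the files only these 40 passed the filter on low counts. Many core histone genes are near-identical copies without poly(A) tails, and their reads are uncertain.

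Sperm transcripts were low in late worms and uneven between the early libraries. Major sperm proteins, the motility and signalling proteins of nematode sperm, summed to 12.44 and 3.295 CPM in late worms and 304 and 67.95 CPM in early worms over 28 tested genes. All 28 were called lower (median -4.50, or -4.40 with the member at 0 late reads held at its bound), and 14 were called lower without early replicate 2, the library with the higher sum. msp-31 had 0.707 and 0.515 CPM in late and 16.5 and 3.997 CPM in early worms (-4.00 ± 0.90, adjusted p = 0.00125), and msp genes are near-identical copies. Other sperm genes summed to 75.15 and 60.03 CPM late and 177.9 and 64.85 CPM early, so the groups overlap, and 4 of 21 rose while 13 fell. The falls numbered 7 without either late replicate and 4 without early replicate 2, and the rises 2 without late replicate 2 or early replicate 3. The myosin gene spe-15 (30.8 and 25.4 CPM late, 16.4 and 7.91 early, 1.22 ± 0.25) and the membrane fusion gene fer-1 (12.2 and 11.2 late, 2.64 and 0.489 early, 2.88 ± 0.47) were among the rises, and the sperm-specific gene ssq-2 (0.884 and 0.103 late, 32.01 and 7.097 early, -5.03 ± 1.12) among the falls.

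Genes of the epidermis, which secretes the cuticle and makes a new one at each larval moult, changed in both directions. Of 175 collagens, 121 passed the filter, 21 of them with at most 3 reads over both early libraries. Of the 121, 43 rose and 46 fell (median 0.56), close to the shares over all genes. At a mean of at least 5 CPM 47 were tested, 13 were higher and 32 lower, and the median turned to -4.28. Summed collagen levels were 2263 and 2213 CPM in late worms and 38620 and 39460 CPM in early worms. Falls were among the largest of any gene. col-20 stood at 4.303 and 5.77 CPM in late and 2902 and 3049 CPM in early worms (-9.25 ± 0.70, adjusted p = 4.94e-08). col-124 stood at 7.25 and 12.05 CPM in late and 2225 and 2236 CPM in early worms (-7.92 ± 0.41). col-93 stood at 1.24 and 2.88 CPM in late and 1079 and 1086 CPM in early worms (-9.18 ± 0.65). col-139 (-8.24 ± 0.24), col-129 (-7.04 ± 0.19), col-142 (-6.47 ± 0.19), col-8 (-7.52 ± 0.40) and col-103 (-5.28 ± 0.20) fell too. Late and early values lay far apart in each of these, which were picked by small p or large change. In the opposite direction, col-56 had 0 reads in both early libraries and 4.07 and 6.796 CPM in late ones, which makes it at least 42.4-fold higher against a floor of 3 reads over the early group.

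Moulting and larval cuticle genes rose as a group, with 20 of 27 higher, 1 lower and a median of 2.44. The list summed to 1963 and 1813 CPM in late worms and 214.2 and 232.7 CPM in early worms. The fibrillin-like gene fbn-1 stood at 290.4 and 243 CPM in late and 8.22 and 8.89 CPM in early worms (4.97 ± 0.28, adjusted p = 3e-09). dex-1, a secreted matrix protein, stood at 133 and 116 CPM in late and 6.98 and 7.34 CPM in early worms (4.12 ± 0.18). let-653, a component of the precuticle of tubes (3.44 ± 0.14), pan-1, a leucine-rich repeat protein needed in larvae (2.30 ± 0.09), and nhr-25, a nuclear receptor that directs epidermal development and moulting (50.9 and 50.1 CPM in late and 2.56 and 2.94 CPM in early worms, 4.20 ± 0.17), rose with them. cutl-8, of the cuticlin-like family, had the steepest rise among genes with more than 3 early reads, at 58.7 and 64.97 CPM in late and 0.233 and 0.0816 CPM in early worms (8.52 ± 0.27, adjusted p = 2.62e-11). Of 39 hedgehog-related genes, secreted relatives of Hedgehog that are used by the epidermis, 17 rose and 8 fell (median 0.96). At a mean of at least 5 CPM 7 of them were tested, 2 were higher and 4 lower, and the median turned to -2.53. wrt-10 stood at 52.05 and 56.7 CPM in late and 1.71 and 2.86 CPM in early worms (4.57 ± 0.28). Among the falls, grd-3 stood at 0.884 and 1.13 CPM in late and 87.7 and 104 CPM in early worms (-6.60 ± 0.29). grd-5 stood at 1.12 and 1.85 CPM in late and 68.8 and 74.1 CPM in early worms (-5.67 ± 0.21).

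Early embryo genes were measured as markers of the eggs that a whole adult can hold. They summed to 197.3 and 174.7 CPM in late worms and 222.8 and 245.6 CPM in early worms. Of 18 tested, 5 rose (27.8%, against 35.6% over all genes) and 6 fell (33.3%, against 36.3%), and 3 fell without early replicate 3. The maternally supplied caudal homologue pal-1 (65.4 and 57.97 CPM in late and 144 and 157 CPM in early worms, -1.27 ± 0.09) and the T-box gene tbx-9 (-1.33 ± 0.11) fell. The epidermal fate gene elt-1 (67.8 and 55.5 CPM in late and 9.84 and 11.6 CPM in early worms, 2.54 ± 0.14), the T-box gene tbx-8 (3.08 ± 0.33) and the paralogs tbx-37 (2.07 ± 0.35) and tbx-38 (1.95 ± 0.30) rose, whereas the endoderm genes end-1 (0.707 and 0.412 CPM late, 1.09 and 0.653 early) and end-3 (1.24 and 0.721 late, 1.16 and 0.816 early) were low in both groups and not called. No tested member of the embryo and moulting lists was at 0 reads in either group. Summed levels of the embryo list were lower in both late libraries and those of the moulting list higher. The part of progeny or retained eggs in the rises of epidermal, neuronal and developmental genes was not tested.

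**Figure D2:**
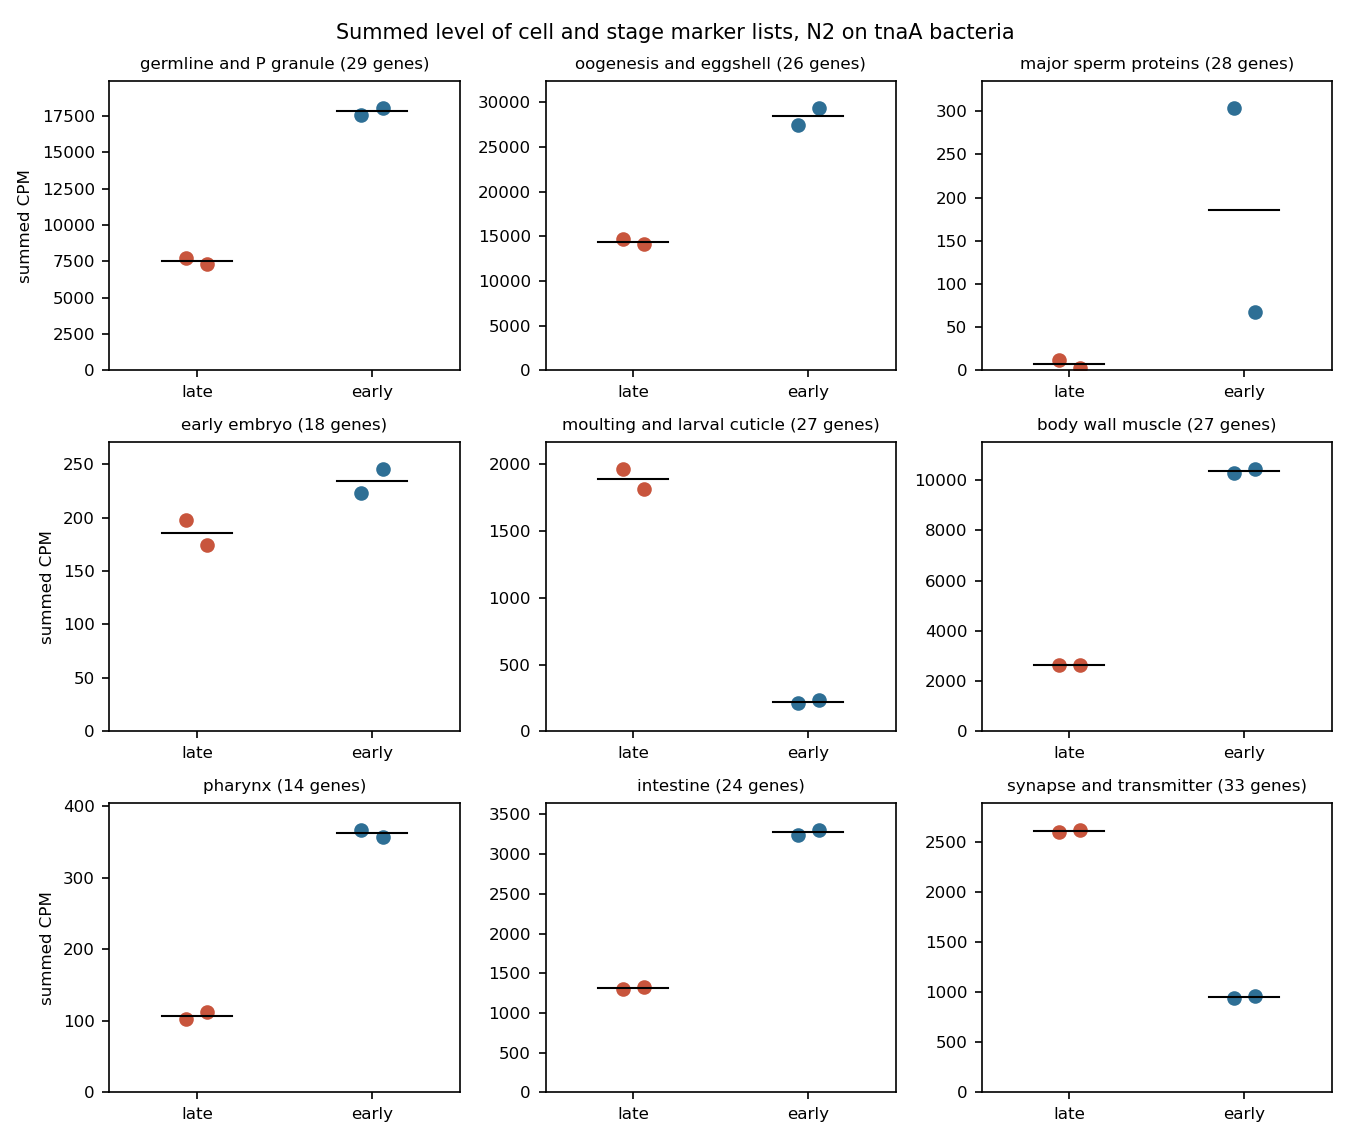
Summed CPM (vertical axis, from 0) of 9 lists of cell and stage markers in the 2 late and the 2 early libraries of N2 on tnaA, with each point 1 library and the line the mean. The sums of germline, oocyte, major sperm protein, early embryo, muscle, pharynx and intestine markers are lower in both late libraries, and those of moulting (1963 and 1813 CPM late, 214.2 and 232.7 early) and synapse markers are higher.

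Muscle transcripts fell strongly. Body wall muscle markers, which code for the sarcomeres and their anchors, summed to 2645 and 2654 CPM in late worms and 10290 and 10450 CPM in early worms, with 4 of 27 members higher (8 by library size alone) and 20 lower (median -2.30). Of the sarcomere genes, mlc-1, a myosin light chain, stood at 12.1 and 10.7 CPM in late and 256 and 259.6 CPM in early worms (-4.48 ± 0.11, adjusted p = 6.05e-12). mlc-3, the alkali light chain, stood at 41.1 and 40.4 CPM in late and 441 and 472 CPM in early worms (-3.48 ± 0.09). pat-10, the troponin C of body wall muscle, stood at 64.7 and 64.97 CPM in late and 959 and 989 CPM in early worms (-3.91 ± 0.09). lev-11, tropomyosin, stood at 136 and 145 CPM in late and 769 and 784 CPM in early worms (-2.47 ± 0.06). dim-1, an immunoglobulin-repeat protein of muscle attachments, stood at 19.9 and 21.4 CPM in late and 258 and 254 CPM in early worms (-3.64 ± 0.08). For all of these both late values lay far below both early values, and replicates lay close together. They were picked by small p among called members, so this follows from the choice and does not describe the list. Pharynx markers fell in 10 of 14 cases and rose in 0 (median -1.48), among them the pharyngeal myosin genes myo-1 (12.2 and 13.7 CPM in late and 76.1 and 70.7 CPM in early worms, -2.52 ± 0.15) and myo-2 (-1.92 ± 0.15) and the troponin T gene tnt-3 (-2.34 ± 0.10). pha-4, the regulator of pharyngeal fate, was not called (11.4 and 14.1 CPM late, 9.61 and 10.9 early).

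Intestinal markers fell in 14 of 24 cases and rose in 5 (median -0.77), and summed to 1302 and 1321 CPM in late worms and 3243 and 3306 CPM in early worms. ifc-1, an intermediate filament of the gut terminal web, had 0.118 and 0 CPM late (2 reads in all) and 17.3 and 13.7 CPM early, a late-to-early ratio of 0.00482, exact 95% interval 0.000582 to 0.0175. The acid phosphatase gene pho-1 stood at 1.47 and 1.65 CPM in late and 47.8 and 58.3 CPM in early worms (-5.10 ± 0.23). vha-6, the apical proton pump subunit of the gut, stood at 35.2 and 41.5 CPM in late and 343 and 358 CPM in early worms (-3.21 ± 0.11). The peptide transporter gene pept-1 stood at 36.8 and 24.8 CPM in late and 115 and 112 CPM in early worms (-1.84 ± 0.15). The gut esterase gene ges-1 stood at 5.13 and 4.94 CPM in late and 20.9 and 18.4 CPM in early worms (-1.96 ± 0.15). The gut regulators elt-2 (9.78 and 8.03 late, 16.7 and 14.8 early, -0.80 ± 0.15) and elt-7 (-0.87 ± 0.27) fell by less, and neither was called by library size alone, nor elt-7 without late replicate 3. The rises were gem-4 (2.31 ± 0.17), the filament genes ifd-2 (1.08 ± 0.17) and ifp-1 (0.86 ± 0.30), the cation channel gene gtl-1 (0.81 ± 0.10) and the microvillus gene eps-8 (0.73 ± 0.08), of which ifp-1 was not called without late replicate 3 or without either early replicate. With library size alone, 10 of the 24 were higher.

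Synapse transcripts rose. Of 33 synapse and transmitter genes 24 were higher and 3 lower (median 1.19), and the list summed to 2601 and 2624 CPM in late worms and 942.9 and 959.2 CPM in early worms. unc-44, the ankyrin of axons, stood at 1212 and 1196 CPM in late and 176 and 168 CPM in early worms (2.81 ± 0.09, adjusted p = 2.62e-11). unc-13, which primes synaptic vesicles, stood at 73.4 and 69.8 CPM in late and 15.9 and 16.97 CPM in early worms (2.13 ± 0.09), and the axon guidance gene unc-33 (1.74 ± 0.06), the active zone gene unc-10 (2.41 ± 0.12) and the calcium channel gene unc-2 (2.11 ± 0.09) rose likewise. FMRFamide-like neuropeptide genes rose in 11 of 30 cases and fell in 1 (19 higher and 0 lower by library size alone), a share of rises near the 35.6% over all genes, with flp-15 at 43.03 and 49.7 CPM in late and 4.57 and 4.41 CPM in early worms (3.36 ± 0.19) and flp-25 (3.44 ± 0.14), flp-5 (2.25 ± 0.15) and flp-16 (1.53 ± 0.16) behind it. Other neuropeptide-like genes split, 11 higher and 10 lower of 40, with 6 higher without late replicate 3, 7 without early replicate 2 and 19 by library size alone. nlp-16 (3.02 ± 0.21) and nlp-34 (5.89 ± 0.38) rose, whereas nlp-24 (-3.59 ± 0.11) and the antimicrobial epidermal peptide gene nlp-33 (-3.10 ± 0.21) fell.

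Insulin-like peptides, ligands of the DAF-2 receptor that regulates lifespan, rose in 16 of 30 tested cases and fell in 3 (median 1.08). The median was 0.98 without late replicate 2. Over all genes 35.6% rose and 36.3% fell. Of the 30, 5 had at most 3 reads over both early libraries. At a mean of at least 5 CPM only 4 were tested, and 4 were higher. ins-20 had 0 early reads and 4.95 and 6.38 CPM in late worms, at least 45.9-fold higher, and ins-2 stood at 18.6 and 23.2 CPM in late and 0.233 and 0.163 CPM in early worms (6.64 ± 0.53). ins-22 (3.41 ± 0.22), ins-23 (3.53 ± 0.39) and ins-34 (1.74 ± 0.17) also rose. Core genes of insulin signalling moved by less, 6 of 13 up (46.2%, against 35.6% over all genes) and 5 down (38.5%, against 36.3%). The receptor gene daf-2 stood at 220.04 and 192 CPM in late and 127 and 121 CPM in early worms (0.74 ± 0.07). The transcription factor gene daf-16 stood at 144 and 150.02 CPM in late and 102 and 98.7 CPM in early worms (0.55 ± 0.09). The kinase gene akt-2 stood at 30.9 and 28.5 CPM in late and 14.5 and 12.5 CPM in early worms (1.14 ± 0.10), all higher, while the kinase gene akt-1 (-0.69 ± 0.07) and the phosphatase gene daf-18 (-0.94 ± 0.07) were lower.

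Many sensory and developmental genes that are scarce in early worms rose. Of 134 tested chemoreceptor genes, 82 rose and 12 fell (median 2.56, or 2.24 with members at 0 reads held at their bound), although 62 of them had at most 3 reads over both early libraries and only 134 of 1355 in the files passed the filter. At a mean of at least 5 CPM 15 were tested, 6 were higher and 8 lower, and the median turned to -0.30. srw-85 stood at 67.4 and 58.1 CPM in late and 0.233 and 0.326 CPM in early worms (7.78 ± 0.22, adjusted p = 1.24e-11). srr-4 stood at 93.8 and 96.1 CPM in late and 8.37 and 8.24 CPM in early worms (3.51 ± 0.12). Among the falls, sri-40 stood at 0.943 and 1.24 CPM in late and 39.8 and 46.2 CPM in early worms (-5.34 ± 0.21). Of 51 homeobox ceh genes, 31 rose and 7 fell, 4 of them falling without late replicate 3 or early replicate 3. The epidermal engrailed gene ceh-16 (12.3 and 14.003 CPM in late and 0.388 and 0.734 CPM in early worms, 4.53 ± 0.28), the distal-less gene ceh-43 (121 and 137 CPM in late and 4.34 and 5.87 CPM in early worms, 4.65 ± 0.19), the cut-related gene ceh-48 (5.04 ± 0.30), the six-type gene ceh-32 (3.50 ± 0.18) and the Hox cofactor gene ceh-20 (2.75 ± 0.13) were among the rises. Scarce genes can pass the filter through their late reads alone. Of 216 long intergenic or antisense noncoding RNAs, 55 passed it, and 24 of these rose (43.6%, against 35.6% over all genes) and 3 fell. At a mean of at least 5 CPM 8 were tested, with 6 higher and 1 lower. Among the rises, linc-22 stood at 57.2 and 71.4 CPM in late and 6.12 and 7.75 CPM in early worms (3.20 ± 0.17). Counting was not stated to use strand, so antisense RNAs and their partner genes cannot be told apart. F-box and MATH-BTB genes, which code for substrate adaptors of ubiquitin ligases, rose in 153 and fell in 57 of 319 cases (median 0.87). Over all genes 35.6% rose and 36.3% fell. Of the 319, 30 had at most 3 reads over both early libraries. At a mean of at least 5 CPM fewer were tested, 50 were higher and 26 lower, and the median was 0.29. Among the rises were fbxa-24 (28.1 and 27.5 CPM in late and 0.465 and 0.489 CPM in early worms, 5.84 ± 0.24) and fbxc-40 (4.87 ± 0.17).

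**Figure D3:**
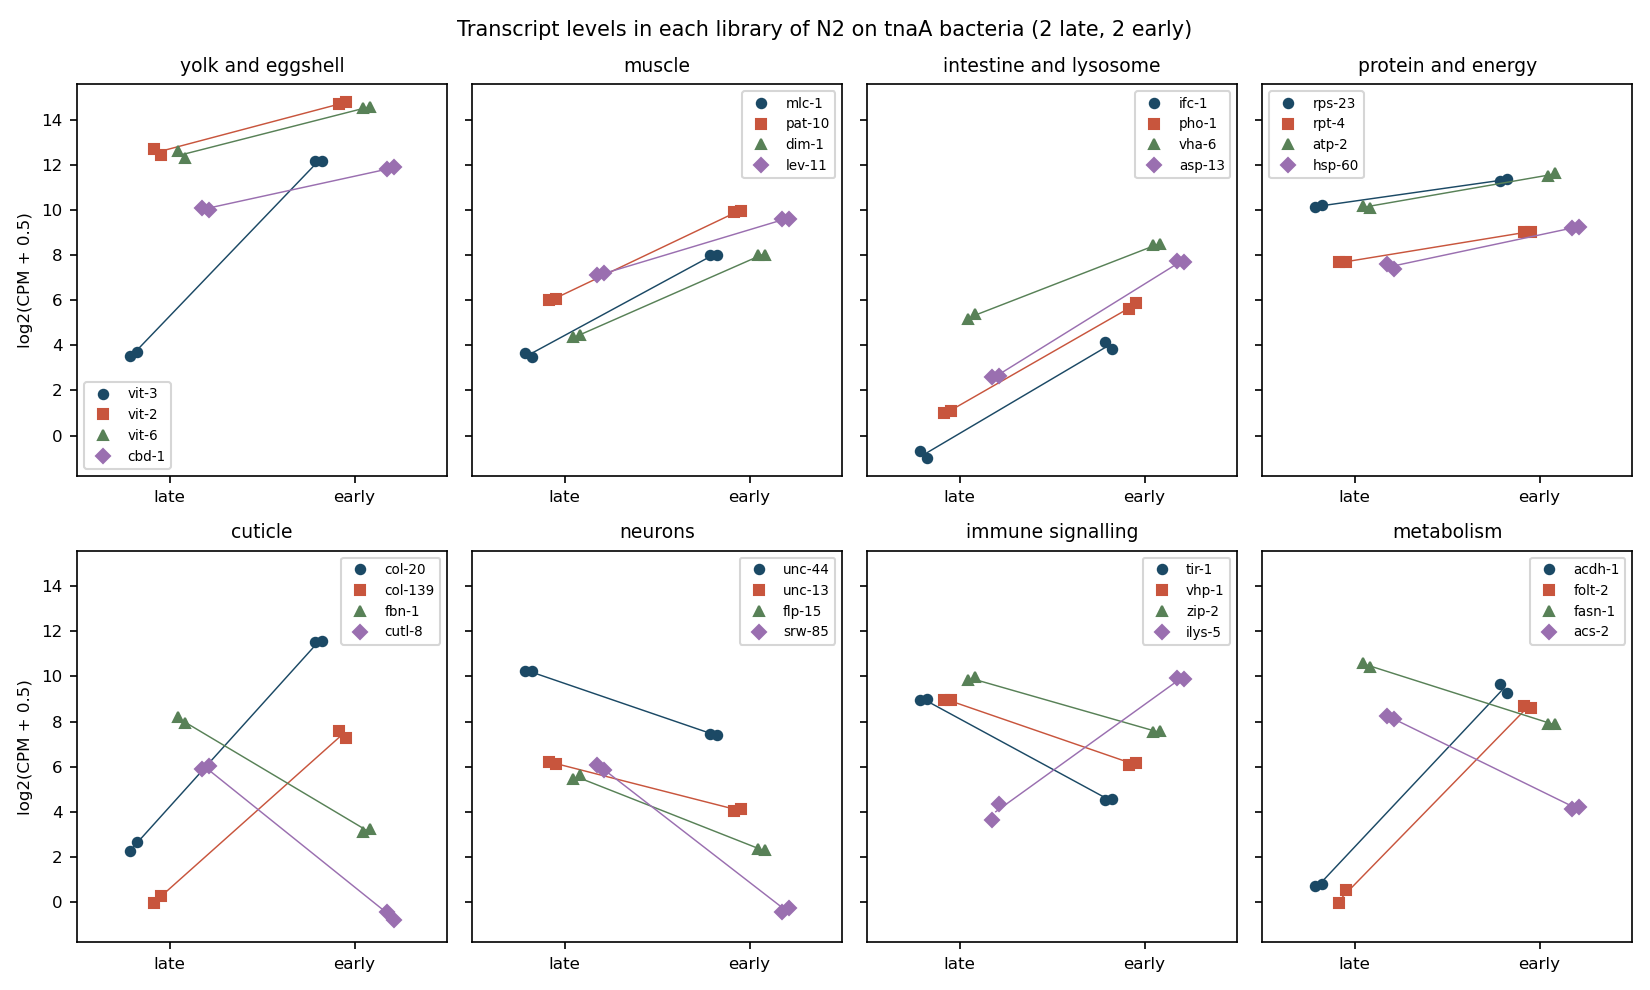
Level of named genes in each library of N2 on tnaA, as log2(CPM + 0.5) on the vertical axis, with the 2 late libraries left and the 2 early libraries right in each panel and lines joining group means. The genes drawn are among those named in the text, many of them picked by small p or large change, which favours close replicates. Yolk, eggshell, muscle, gut, protein and energy genes, both collagens, ilys-5, acdh-1 and folt-2 are lower in late worms, whereas fbn-1, cutl-8, the genes of the neuron panel, tir-1, vhp-1, zip-2, fasn-1 and acs-2 are higher.

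The machinery that makes and breaks down proteins fell in most of its tested members, by modest amounts. Proteins of the cytosolic ribosome were lower for 73 of 78 genes and higher for 3 (median -0.80), or 55 and 6 by library size alone. rps-23 stood at 1123 and 1172 CPM in late and 2479 and 2666 CPM in early worms (-1.17 ± 0.06, adjusted p = 1.09e-09), and rps-7 (-1.10 ± 0.05), rps-24 (-1.13 ± 0.05), rps-17 (-1.07 ± 0.05) and rpl-11.1 (-1.21 ± 0.06) behaved alike. Mitochondrial ribosomal protein genes fell in 60 of 63 cases (median -0.55), with mrpl-12 at 27.2 and 24.2 CPM in late and 66.7 and 72.5 CPM in early worms (-1.42 ± 0.08), but by library size alone 6 were higher and 28 lower. Of 31 tRNA synthetase genes, which charge tRNAs with amino acids, 25 fell and 2 rose, with vars-2 at 221 and 219 CPM in late and 506 and 512 CPM in early worms (-1.21 ± 0.05), and by library size alone 11 were higher and 15 lower. Translation factors fell in 21 of 28 cases, the cap-binding gene ife-3 (-1.42 ± 0.07) and the germline eIF5A gene iff-1 (-1.51 ± 0.06) among them, and rose in 3 (8 higher and 15 lower by library size alone). One of the rises was large. The elongation factor gene eef-1A.2 stood at 1850 and 1933 CPM in late and 293 and 334 CPM in early worms (2.59 ± 0.08), and it shares most of its coding sequence with its paralog, so reads may be divided between them.

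All 31 proteasome genes fell (median -1.11), as did at least 30 of them in each alternative run on this comparison. The base ATPase gene rpt-4 stood at 206 and 203 CPM in late and 511 and 526 CPM in early worms (-1.34 ± 0.06, adjusted p = 2.31e-10), the core subunit genes pas-2 (-1.53 ± 0.07), pas-5 (-1.31 ± 0.06) and pbs-6 (-1.15 ± 0.05) and the lid gene rpn-12 (-1.29 ± 0.06) similarly. Nuclear genes of the respiratory chain, which makes ATP in mitochondria, fell in 32 of 35 cases and rose in 0 (median -0.88). By library size alone 27 were lower and 3 higher. The ATP synthase gene atp-2 stood at 1160 and 1100 CPM in late and 2921 and 3144 CPM in early worms (-1.42 ± 0.07). The complex II gene sdha-2 stood at 91.8 and 85.6 CPM in late and 285 and 284 CPM in early worms (-1.68 ± 0.07). nduf-2.2 of complex I stood at 81.5 and 89.1 CPM in late and 215 and 227 CPM in early worms (-1.38 ± 0.06). The mitochondrial chaperonin gene hsp-60 (193 and 166 CPM in late and 588 and 612 CPM in early worms, -1.73 ± 0.10), the mitochondrial Hsp70 gene hsp-6 (-0.79 ± 0.06) and the prohibitin genes phb-1 (-1.03 ± 0.06) and phb-2 (-1.19 ± 0.06) fell alongside, in a list of mitochondrial chaperones and stress genes with 2 of 13 higher and 9 lower. The 2 rises numbered 0 without late replicate 3 or early replicate 2 and 1 without late replicate 2 or early replicate 3, and by library size alone 5 were higher and 6 lower. Autophagy, the delivery of cell contents to lysosomes, went the other way, with 19 of 26 genes higher and 2 lower (median 0.50). The cargo receptor gene sqst-1 stood at 864 and 820.3 CPM in late and 154 and 185 CPM in early worms (2.31 ± 0.10). The lipid transfer gene atg-2 stood at 186 and 179 CPM in late and 52.3 and 55.1 CPM in early worms (1.77 ± 0.07). The initiating kinase gene unc-51 stood at 174 and 191 CPM in late and 57.2 and 62.4 CPM in early worms (1.60 ± 0.07), and bec-1 (1.21 ± 0.07) and the LC3-like lgg-1 (0.84 ± 0.06) rose as well.

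Lysosomal and digestive genes fell. Of 22 lysosomal protease genes, 18 fell and 1 rose (median -1.88). The aspartyl protease genes asp-13 (5.54 and 5.77 CPM in late and 214 and 203 CPM in early worms, -5.21 ± 0.21), asp-2 (18.3 and 19.9 CPM in late and 393 and 443 CPM in early worms, -4.46 ± 0.20), asp-14 (-4.09 ± 0.13) and asp-3 (-2.56 ± 0.17) and the cathepsin genes cpl-1 (490.4 and 489 CPM in late and 1556 and 1638 CPM in early worms, -1.71 ± 0.06) and cpr-6 (-2.50 ± 0.12) were among the falls. The exception was cpr-2, with 14.6 and 11.4 CPM late and 0 and 0.163 CPM early (2 early reads, ratio 169, exact 95% interval 46.5 to 1400). Subunits of the vacuolar ATPase, which acidifies lysosomes and the gut lumen, fell in 19 of 20 cases (median -1.12), from vha-17 (-0.60 ± 0.08) to vha-6 (-3.21 ± 0.11). Only unc-32, a membrane subunit, was not called (278 and 259.7 CPM late, 267 and 261 early).

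Immune effectors changed in both directions, as all genes tested did (35.6% higher and 36.3% lower), and upstream genes of the p38 pathway rose. Among 12 tested lysozymes, which digest bacterial walls, 4 rose and 7 fell (4 and 5 by library size alone). ilys-5 stood at 12.1 and 19.98 CPM in late and 969 and 946 CPM in early worms (-5.96 ± 0.21). lys-8 stood at 17.04 and 16.5 CPM in late and 173 and 199 CPM in early worms (-3.47 ± 0.18). lys-1 stood at 45.6 and 41.7 CPM in late and 226 and 269.5 CPM in early worms (-2.50 ± 0.17). In the other direction, lys-3 stood at 45.8 and 52.9 CPM in late and 1.01 and 1.31 CPM in early worms (5.40 ± 0.35) and ilys-3 had 0 early reads and 4.01 and 4.94 CPM late, at least 36.5-fold higher. Of 44 antimicrobial peptide genes 10 rose and 22 fell, with the saposin-like genes spp-17 (2.83 and 5.46 CPM in late and 378 and 443 CPM in early worms, -6.74 ± 0.42) and spp-4 (-5.45 ± 0.25) lower and the caenacin gene cnc-6 at 0 early reads and 6.66 and 5.66 CPM late, at least 52.8-fold higher. C-type lectins, carbohydrate-binding proteins, rose in 23 and fell in 50 of 129 cases (15 rose without late replicate 2), where 38.8% lower is near the 36.3% over all genes, and clec-266 stood at 622 and 726 CPM in late and 16.7 and 19.9 CPM in early worms (5.20 ± 0.23). clec-50 stood at 38.3 and 31.9 CPM in late and 313 and 374 CPM in early worms (-3.27 ± 0.17). The next list joins the PMK-1 pathway, the p38 kinase cascade of gut immunity, with other infection response genes, and 8 of its 15 rose and 6 fell. The upstream adaptor gene tir-1 (499 and 514 CPM in late and 22.7 and 22.9 CPM in early worms, 4.47 ± 0.11, adjusted p = 4.8e-12), the kinase genes nsy-1 (1.13 ± 0.07), sek-1 (1.35 ± 0.07) and pmk-1 (48.3 and 47.98 CPM in late and 18.3 and 17.4 CPM in early worms, 1.43 ± 0.09) and the phosphatase gene vhp-1, which switches the cascade off (497 and 494 CPM in late and 67.04 and 72.03 CPM in early worms, 2.83 ± 0.09), all rose. So did the infection response regulator zip-2 (910.1 and 1004 CPM in late and 184 and 192 CPM in early worms, 2.35 ± 0.09) with irg-1 (2.57 ± 0.36) and irg-2 (1.50 ± 0.22). The effectors T24B8.5 (0.413 and 0.412 CPM in late and 8.68 and 12.97 CPM in early worms, -4.68 ± 0.47), C17H12.8 (-4.68 ± 0.29), K08D8.5 (-3.63 ± 0.20) and irg-3 (-2.08 ± 0.21) fell. Transthyretin-like proteins, a large secreted family of nematodes, rose in 15 and fell in 25 of 48 cases, and by library size alone 19 were higher and 19 lower.

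Stress genes showed no single direction, and neither did all genes tested (35.6% higher and 36.3% lower). Of 15 tested cytosolic heat shock genes 5 rose and 9 fell, and the median of -0.39 became 0.08 by library size alone. The Hsp90 gene daf-21 (4278 and 4184 CPM in late and 6455 and 6626 CPM in early worms, -0.63 ± 0.05), its co-chaperone sti-1 (-1.41 ± 0.07) and the small heat shock genes hsp-25 (-1.80 ± 0.08) and hsp-17 (15.7 and 13.4 CPM in late and 80.9 and 86.6 CPM in early worms, -2.50 ± 0.14) fell, while hsp-12.6, a target of DAF-16 (8.78 and 5.35 CPM late, 2.79 and 1.79 early, 1.65 ± 0.29), rose. Genes of the endoplasmic reticulum stress response split into 8 rises and 8 falls of 20 (17 higher and 2 lower by library size alone), with the transcription factor genes xbp-1 (572 and 585 CPM in late and 276 and 274 CPM in early worms, 1.07 ± 0.06) and atf-6 (1.66 ± 0.10) higher and the BiP gene hsp-4 (366 and 381 CPM in late and 632 and 651 CPM in early worms, -0.78 ± 0.05) lower. Among antioxidant genes 8 of 20 rose and 10 fell. The extracellular superoxide dismutase gene sod-4 (56.8 and 52.1 CPM in late and 15.04 and 14.4 CPM in early worms, 1.89 ± 0.08) rose, as did the regulator gene skn-1 (0.55 ± 0.05), and the cytosolic sod-1 (-0.77 ± 0.08), the mitochondrial sod-2 (-0.93 ± 0.06) and sod-3 (-2.40 ± 0.33), the methionine sulfoxide reductase gene msra-1 (11.7 and 10.9 CPM in late and 138 and 144 CPM in early worms, -3.63 ± 0.13) and the peroxiredoxin gene prdx-3 (-1.08 ± 0.07) fell. The HIF-1 hypoxia list rose in 9 of 11 cases and fell in 0 by small amounts, phy-2 (39.1 and 42.1 CPM in late and 16.97 and 19.6 CPM in early worms, 1.15 ± 0.13) and cysl-1 (0.96 ± 0.08) among them, and 3 were called without late replicate 3 and 4 without early replicate 2. Genes known to be raised by DAF-16 split into 9 rises and 7 falls of 19, with the metallothionein gene mtl-1 (22.99 and 17.4 CPM in late and 0.853 and 1.47 CPM in early worms, 4.14 ± 0.30) and the mitophagy receptor gene dct-1 (2.15 ± 0.08) higher and lys-8 and sod-3 lower. Genes known to be lowered by DAF-16 fell in 10 of 13 cases, among them dct-16 (33.01 and 27.1 CPM in late and 507 and 476 CPM in early worms, -4.01 ± 0.10, adjusted p = 4.8e-12), dct-18 (-3.35 ± 0.13) and dod-22 (-5.21 ± 0.40), and the insulin-like gene ins-7 (2.64 ± 0.33) and dod-23 (0.59 ± 0.07) rose.

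Among metabolic genes, those of propionate breakdown and the methionine cycle held some of the steepest falls. acdh-1, an acyl-CoA dehydrogenase of the propionate shunt, stood at 1.12 and 1.24 CPM in late and 808 and 614 CPM in early worms (-9.24 ± 0.55, adjusted p = 4.92e-09). folt-2, of the folate transporter family, stood at 0.472 and 0.927 CPM in late and 409 and 385 CPM in early worms (-9.26 ± 0.37, adjusted p = 1.42e-10). Of the 23 tested genes of this list 19 fell and 1 rose. The enoyl-CoA hydratase gene ech-6 (76.2 and 68.6 CPM in late and 411 and 372 CPM in early worms, -2.43 ± 0.07), the methionine synthase gene metr-1 (125 and 122 CPM in late and 431 and 428 CPM in early worms, -1.80 ± 0.06), the S-adenosylmethionine synthase gene sams-1 (-1.50 ± 0.12), the phosphocholine pathway gene pmt-2 (-2.61 ± 0.11) and the shunt's regulator nhr-68 (-2.28 ± 0.12) fell, and the regulator nhr-10 (0.78 ± 0.09) rose. Fat metabolism was divided, as all genes tested were (35.6% higher and 36.3% lower). The fatty acid synthase gene fasn-1 stood at 1565 and 1350 CPM in late and 237 and 239 CPM in early worms (2.61 ± 0.08, adjusted p = 1.86e-11). acs-2, an acyl-CoA synthetase induced by fasting, stood at 300.03 and 279 CPM in late and 17.1 and 17.9 CPM in early worms (4.05 ± 0.15). The elongase genes elo-2 (61.95 and 59.2 CPM in late and 239 and 244 CPM in early worms, -1.99 ± 0.07), elo-5 (-1.72 ± 0.16) and elo-6 (-2.18 ± 0.21) and the stearoyl desaturase gene fat-7 (1.12 and 1.85 CPM in late and 42.2 and 36.1 CPM in early worms, -4.80 ± 0.29) fell, while fat-5 (1.15 ± 0.20) and fat-3 (0.65 ± 0.07) rose and fat-6 was not called (372 and 317 CPM late, 324 and 332 early). Fatty acid oxidation genes rose in 9 and fell in 23 of 41 cases (16 and 15 by library size alone), with acdh-2 (-4.66 ± 0.20), ech-7 (-2.79 ± 0.10) and the thiolase gene kat-1 (-1.84 ± 0.07) lower. Lipases rose in 10 of 18 cases, the lysosomal lipl-1 (2.43 ± 0.20) and lipl-3 (2.71 ± 0.40) and the hormone-sensitive lipase gene hosl-1 (82.9 and 80.5 CPM in late and 28.5 and 27.98 CPM in early worms, 1.53 ± 0.09) among them. Of 18 lipid-binding proteins, 5 rose and 12 fell, with lbp-6 at 44.6 and 42.8 CPM in late and 261 and 287 CPM in early worms (-2.64 ± 0.10). far-7 stood at 21.9 and 17.3 CPM in late and 2.09 and 2.61 CPM in early worms (3.08 ± 0.21).

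Detoxification families held both directions, as all genes tested did (35.6% higher and 36.3% lower). Nuclear hormone receptors are ligand-gated transcription factors of which the worm has an unusually large set. They rose in 123 of 197 tested cases (62.4%) and fell in 13 (6.6%, median 0.90). nhr-19 stood at 29.7 and 27.5 CPM in late and 3.02 and 3.1000 CPM in early worms (3.22 ± 0.14). nhr-154 stood at 105 and 93.8 CPM in late and 10.9 and 11.7 CPM in early worms (3.13 ± 0.13). nhr-11 stood at 57.3 and 61.7 CPM in late and 6.51 and 6.93 CPM in early worms (3.14 ± 0.14), and nhr-155 had 0 early reads and 7.19 and 8.44 CPM late, at least 64.1-fold higher. Cytochrome P450 genes, which oxidise xenobiotics and lipids, rose in 26 and fell in 20 of 65 cases, with cyp-13A10 at 18.7 and 18.5 CPM in late and 1.395 and 1.14 CPM in early worms (3.86 ± 0.20). UDP-glucuronosyltransferases, which attach sugars to xenobiotics, rose in 17 and fell in 26 of 59 cases, with ugt-18 at 19.98 and 20.3 CPM in late and 1.09 and 0.734 CPM in early worms (4.45 ± 0.23). ugt-44 stood at 10.4 and 9.27 CPM in late and 108 and 112 CPM in early worms (-3.47 ± 0.13). Glutathione S-transferases rose in 10 and fell in 18 of 41 cases, gst-13 most clearly (6.07 and 5.25 CPM in late and 92.5 and 98.4 CPM in early worms, -4.05 ± 0.09, adjusted p = 4.8e-12). Of 53 ABC transporters, 15 rose and 22 fell (25 rose by library size alone). mrp-2 stood at 211 and 211 CPM in late and 22.6 and 18.5 CPM in early worms (3.36 ± 0.08). pgp-8 stood at 34.8 and 32.3 CPM in late and 0.775 and 0.816 CPM in early worms (5.39 ± 0.19). The peroxisomal pmp-5 stood at 4.42 and 3.71 CPM in late and 109.98 and 94.8 CPM in early worms (-4.62 ± 0.13). By library size alone the medians of the last 3 of these families turned from below to above 0. Cytochrome P450 genes were called higher in 40.0% and lower in 30.8%, and UDP-glucuronosyltransferases in 28.8% and 44.1%. Glutathione S-transferases were at 24.4% and 43.9%, and ABC transporters at 28.3% and 41.5%. These shares lie around the 35.6% and 36.3% over all genes.

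The transcript of AHR-1, the receptor named above, was scarce in whole worms. ahr-1 stood at 2.59 and 1.75 CPM in late and 0.543 and 0.245 CPM in early worms (2.45 ± 0.58, adjusted p = 0.00166). Its partner aha-1 stood at 43.7 and 41.1 CPM in late and 23.3 and 24.9 CPM in early worms (0.82 ± 0.08). Soluble guanylate cyclase genes of oxygen-sensing neurons (URX and BAG) rose with it. gcy-37 stood at 16.3 and 12.2 CPM in late and 0.465 and 0.571 CPM in early worms (4.77 ± 0.30). gcy-36 stood at 5.19 and 3.81 CPM in late and 0.543 and 0.326 CPM in early worms (3.35 ± 0.47). gcy-33 stood at 3.83 and 3.604 CPM in late and 0.388 and 0.571 CPM in early worms (2.94 ± 0.43), while gcy-35 was not called (1.12 and 1.24 CPM late, 0.698 and 0.897 early). Of these 8 genes 7 rose (87.5%, against 35.6% over all genes), beside 24 of 33 synapse genes. Without any single tnaA library 6 of the 8 were called higher. At a mean of at least 5 CPM only 2 were tested, and 2 were higher. Host genes of tryptophan use fell in 7 of 8 tested cases, among them flu-2, the kynureninase gene (18.3 and 19.2 CPM in late and 132 and 133 CPM in early worms, -2.83 ± 0.10), haao-1 (1.47 and 1.54 CPM in late and 20.4 and 19.3 CPM in early worms, -3.72 ± 0.18) and the aromatic amino acid decarboxylase gene bas-1 (-2.82 ± 0.20), 4 of them falling by library size alone. The exception was tph-1, which makes serotonin (1.002 and 0.824 CPM late, 0.233 and 0.245 early, 1.91 ± 0.67, adjusted p = 0.0184), and its rise was not called without late replicate 2 or without either early replicate. Metal genes rose in 6 and fell in 7 of 16 cases (37.5% and 43.8%, against 35.6% and 36.3% over all genes). The ferritin gene ftn-1 (19.7 and 13.5 CPM in late and 0.698 and 0.489 CPM in early worms, 4.80 ± 0.30) and the metallothionein genes mtl-1 and mtl-2 (79.99 and 66.8 CPM in late and 37.1 and 40.1 CPM in early worms, 0.94 ± 0.09) rose, against ftn-2 (-1.04 ± 0.08) and cdr-7 (-3.39 ± 0.17).

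Some genes were close to silent at one age. Averaging 5 CPM or more in late worms, 49 genes had at most 3 reads over both early libraries, and 10 of them had 0. The reverse held for 10 genes, none with 0 late reads. Besides those above, hmg-6, of the HMG-box family (8.37 and 10.5 CPM late, 0 early, at least 76.7-fold higher), nlp-39 (13.3 and 14.9 CPM late, 1 early read, ratio 349, exact 95% interval 62.3 to 13800) and spp-20 (13.3 and 16.4 CPM late, 1 early read, ratio 362, exact 95% interval 64.6 to 14300) were among the steepest rises, and C27H5.6 had 45.3 and 61.5 CPM late and 1 early read, a ratio of 1290, exact 95% interval 231 to 50900. Among the steepest falls were dod-24, of the genes listed as lowered by DAF-16 (0.354 and 0 CPM in late and 29.99 and 32.5 CPM in early worms, -7.07 ± 0.52) and pud-3, named for a protein raised in daf-2 mutants (0.295 and 0 CPM in late and 79.9 and 56.7 CPM in early worms, -8.44 ± 0.57).

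Set beside ageing on K12, which shares no library with it, ageing on tnaA called mostly the same genes. On K12, 4974 genes (32.9%) were higher and 5553 (36.7%) lower in late worms (69.6% in either direction). The shared rises numbered 4554, which is 84.4% of the rises on tnaA and 91.6% of those on K12, and the shared falls 4970, which is 90.4% and 89.5%. Opposite calls were made for 3 genes that rose on tnaA and fell on K12, and for 3 in the reverse sense. Among shared rises the median change was 1.84 on tnaA and 1.47 on K12, and 78.8% were larger on tnaA. Among shared falls it was -0.89 on tnaA and -0.73 on K12, and 75.7% were larger on tnaA. These shares are descriptions across genes, which are not independent replicates.

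The difference between both ageing changes was tested gene by gene as an interaction, the change on tnaA minus the change on K12. It called 147 genes higher (0.971%) and 217 lower (1.43%). Of the 364, 194 fell on both bacteria and further on tnaA, 115 rose on both and further on tnaA, and 55 had another pattern. Of the 29 germline genes, 13 were called lower in the difference, among them csr-1 (-0.54 ± 0.07, adjusted p = 0.0152), cgh-1 (-0.54 ± 0.11), wago-1 (-0.45 ± 0.10) and pgl-3 (-0.39 ± 0.08). The oogenesis list had 10 of 26 lower, cbd-1 (-0.47 ± 0.11) and cey-3 (-0.51 ± 0.11) among them, and meiosis 6 of 33, with syp-2 (-0.56 ± 0.10). In late worms csr-1 stood at 218 and 211 CPM on tnaA and 309 and 297 CPM on K12, in early worms at 642 and 634 CPM on tnaA and 629, 630.5 and 595 CPM on K12. The late groups lie far apart for it, and the early groups nearly meet. These calls depend on single libraries. Leaving out early K12 replicate 1 gave 15 lower calls in the germline list, and leaving out any other N2 library gave at most 1, in the oogenesis list 0 and in the meiosis list at most 1. For the whole difference, 429 higher and 289 lower genes were called without early K12 replicate 1. At most 43 and 47 were called without any other K12 library, and at most 9 and 21 without any one tnaA library.

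Some genes with steep falls on tnaA were among the largest called differences. folt-2 stood at 0.472 and 0.927 CPM in late worms on tnaA and 5.72 and 15.2 CPM in late worms on K12, against 409 and 385 CPM in early worms on tnaA and 352, 339 and 358 CPM in early worms on K12 (difference -4.19 ± 0.63, adjusted p = 0.0183). acdh-1 stood at 4.75 and 24.7 CPM in late and 692, 681 and 703 CPM in early worms on K12 (-3.67 ± 0.85, adjusted p = 0.0478), and vit-3 at 131 and 230.1 CPM late and 4765, 4629 and 4606 CPM early on K12 (-3.92 ± 0.92, adjusted p = 0.0483). For these 3 genes both late values on tnaA lay below both late values on K12, while early values lay close together on both bacteria. The collagen genes col-80 (-2.93 ± 0.68) and col-160 (-2.84 ± 0.67), the protease gene asp-17 (-3.15 ± 0.57), the lysozyme gene ilys-5 (-1.82 ± 0.26) and the effector T24B8.5 (-3.00 ± 0.61) followed. In the other direction, pqn-32 stood at 16.7 and 21.3 CPM late and 0.465 and 0.489 CPM early on tnaA, and at 18.98 and 14.3 CPM late and 2.58, 6.65 and 6.85 CPM early on K12 (3.65 ± 0.59, adjusted p = 0.0229), so that the late groups overlap and the early groups do not. lipl-6 (2.74 ± 0.66), srw-85 (2.09 ± 0.48), nhr-25 (1.01 ± 0.24) and mtl-2 (0.92 ± 0.12, adjusted p = 0.0113) were higher in the difference as well. The cuticlin gene cut-3 was not called on tnaA (2.77 and 0.515 CPM late, 1.63 and 2.203 early) and fell on K12 (0.572 and 0.605 late, 8.41, 18.2 and 25.1 early), a difference of 4.80 ± 0.92 with uneven early replicates on K12. Single libraries carried these calls too. For 10 of these genes (folt-2, acdh-1, vit-3, col-80, col-160, asp-17, T24B8.5, pqn-32, lipl-6 and cut-3) the difference was refitted without each N2 library in turn. Without late tnaA replicate 2, late tnaA replicate 3 or early tnaA replicate 3, 0 of the 10 were called, and without early tnaA replicate 2 the called genes were folt-2 and asp-17. All 10 were called without early K12 replicate 1, and 1 to 4 without each other K12 library. Of the 197 nuclear hormone receptors, 9 were higher in the difference and 0 lower, and at most 2 were higher without any one of the other 8 N2 libraries than early K12 replicate 1.

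**Figure D4:**
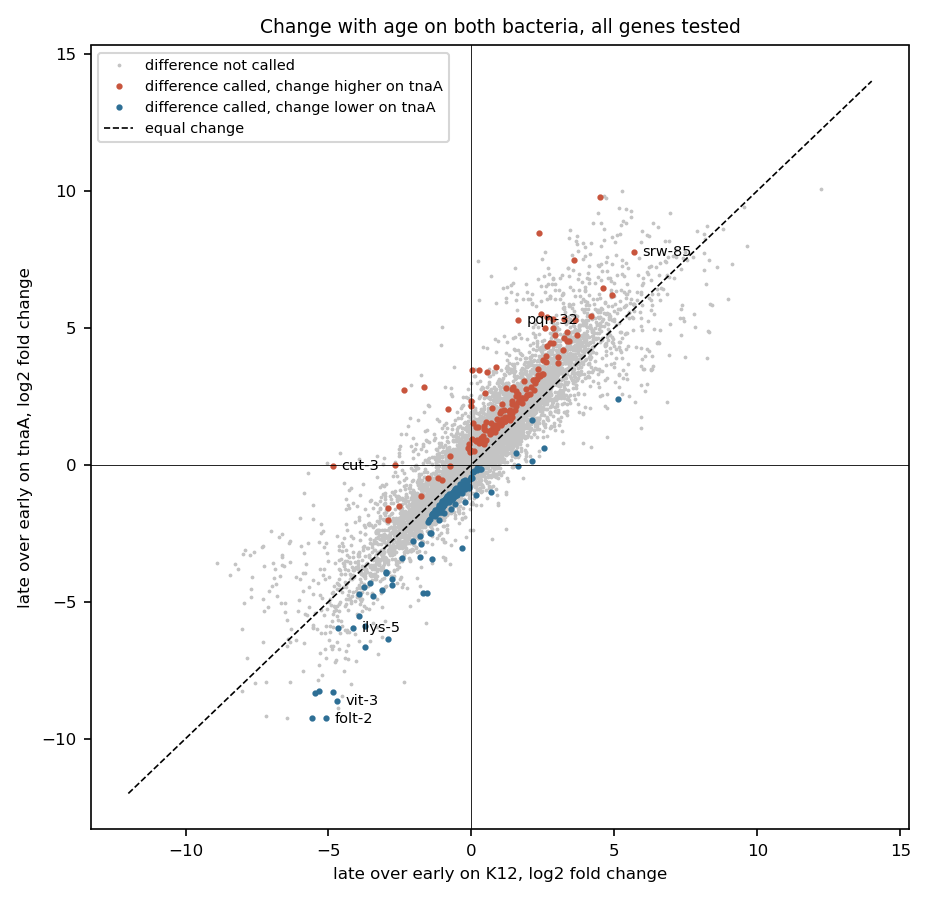
Log2 fold change of late over early N2 on tnaA (vertical axis) against the same on K12 (horizontal axis) for the 15133 genes tested. Red and blue points are the 147 and 217 genes whose difference between bacteria was called higher and lower on tnaA, and the dashed line marks equal change. Most genes lie along the line, and the blue points at the lower left include folt-2 and vit-3.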

How the data were processed

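Whole-worm RNA of 11 libraries was sequenced on Illumina instruments, 4 of them late and early N2 on tnaA. The deposited files hold raw counts of reads per gene for each library, made by the authors with Trim Galore, STAR and HTSeq 0.6.1p2, per the submitters' processing notes, which also name DESeq2. Neither genome build nor annotation nor strand setting is stated in the labels, and coordinates are therefore not printed. Each file has 42048 gene rows, of which 38843 bear a current symbol. Rows that name no gene (outside genes, ambiguous) were left out of library sizes. The authors' 8 columns of normalised values in deposited tables were not used.

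Counts were fitted in edgeR 4.0.16 (R 4.3.3) with TMM scaling, filterByExpr by group (minimum count 10), a mean for each of 5 groups, 6 residual degrees of freedom and the quasi-likelihood F test. Benjamini-Hochberg adjustment ran over 15133 genes. Standard errors are the unshrunken log2 fold change divided by the square root of F. A group with 0 reads was set to a floor of 3 reads over both libraries, and 1 to 3 reads are given as a ratio with an exact 95% interval. Floors and intervals cover counting error only. On simulated counts with known changes between late and early tnaA over 14736 genes, 53.7% of 67 genes changed 1.5-fold, 71.6% of 67 changed 2-fold and 92.4% of 66 changed 4-fold were called. Of unchanged genes 20 were called. The changed genes averaged at least 1 CPM and all others were equal between late and early tnaA. In the data 72% of genes were called, so these rates check the fit and do not give the power of this comparison. Alternatives were RLE factors, library size alone, other filters, DESeq2 1.42.0, fewer groups, a replicate block and libraries left out. Labels call the libraries biological replicates without naming separate cultures, so the spread may be in part technical.

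Named genes are the 15 largest non-overlapping rises and falls with at least 5 CPM in the higher group, up to 5 called members of each list by p, uncalled members of short lists, and the 10 largest differences from K12 in each direction, of which a part is given. Members and lists were chosen with earlier results of these data known.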

Additional observations from a re-analysis of the deposited data

Results flagged for a closer look

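The ageing change on tnaA differed from that on K12, by the interaction term of edgeR's quasi-likelihood fit, for 147 genes in the higher and 217 genes in the lower direction. Without any single tnaA library at most 9 genes were called higher and 21 lower, and with the replicate number as a block 6 and 4. The values below are estimates of the main fit, and as a set their calls depend on single libraries. Differences here are log2 changes on tnaA minus log2 changes on K12. Among germline, oocyte and meiosis genes they were -0.54 for csr-1, -0.54 for cgh-1, -0.45 for wago-1, -0.39 for pgl-3, -0.38 for ifet-1, -0.47 for cbd-1, -0.51 for cey-3, -0.43 for egg-3, -0.39 for puf-11 and -0.56 for syp-2.

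Genes of metabolism, mitochondria and protein turnover differed by -4.19 for folt-2, -3.67 for acdh-1, -0.73 for ech-7, -0.45 for kat-1, -0.67 for hsp-60, -0.41 for hsp-6, -0.40 for phb-2, -0.58 for sdha-2, -0.36 for nduf-2.2, -0.30 for pbs-6, -0.34 for rpl-11.1, -0.42 for ife-3 and -0.31 for vars-2. Other falls that were steeper on tnaA gave -3.92 for vit-3, -3.15 for asp-17, -3.00 for T24B8.5, -2.93 for col-80, -2.84 for col-160, -1.82 for ilys-5, -1.11 for hsp-17 and -0.73 for mlc-1. Positive differences were 4.80 for cut-3, 3.65 for pqn-32, 2.74 for lipl-6, 2.09 for srw-85, 1.01 for nhr-25, 0.92 for mtl-2, 0.84 for ceh-20, 0.60 for dct-1, 0.50 for nhr-10, 0.49 for nsy-1 and 0.45 for atg-2.

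Reads outside annotated genes, which no comparison used, made up 9.265% and 14.84% of the late libraries on tnaA, above the 7.073% and 6.95% of the early ones. The part of this share in the results was not tested.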

How the results depend on the processing

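The counts of rises and falls on tnaA (5394 and 5498) stayed within 1.5 times under RLE size factors (5618 and 5299), no filter, DESeq2 (4908 and 4880) and a fit of the compared groups alone (5479 and 5234). Library size alone gave 3140 falls, 1184 of at least 2-fold, and 120 lower differences from K12. A minimum mean of 5 CPM, which tests fewer genes, gave 1919 rises and 1158 falls of at least 2-fold, with 433 higher and 397 lower differences. Without a filter the differences numbered 634 higher and 689 lower, with the compared groups alone 335 and 909, and 425 (RLE) and 614 (DESeq2) were lower. The cause of these moves was not tested. Leaving out single tnaA libraries gave 4835 to 4973 rises and 5056 to 5191 falls (3592 to 3677 and 2096 to 2272 of at least 2-fold). Leaving out single N2 libraries gave 1 to 429 higher and 2 to 289 lower differences, so these calls depend on single libraries.

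Replicate numbers 2 and 3 occur at both ages, but nothing in the labels pairs them, and deviations of same-numbered tnaA libraries correlated at r = 0.169 over 12828 genes with 2 pairs only. With the replicate number as a block over 11 libraries, 5179 genes were higher and 5359 lower, and the differences from K12 numbered 6 higher and 4 lower, with 0 lower in the germline, oogenesis and meiosis lists, 2 higher among nuclear hormone receptors and 0 of the 10 named differences called. With the block over the 4 tnaA libraries, 5535 were higher and 5322 lower.

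Of the 258 genes named in the text, 252 kept their side of the threshold by library size alone, 257 with DESeq2 and at least 256 without any single tnaA library, and none reversed. Many were picked by small p or large change in these same data, so this does not carry over to other genes. Of all 5498 falls, 3140 kept their call by library size alone and 498 turned into rises. A count of calls by chromosome and gene type was planned and not run. Late replicate 3 had the fewest gene reads (8310145), where 1 read is worth 0.103 CPM, and this limits what can be said of transcripts near that level.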
